A study of Mus musculus with 156 samples.

Results

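The colon and the liver of the same 10 mice of 15 months were compared across all genes. The members were the 10 colon libraries and the 10 liver libraries that carry the mouse codes 15M.N1 to 15M.N10 (N1 to N10 hereafter), 20 of the 156 RNA-seq libraries of the series, and each colon was paired with the liver of the same animal by that code. All animals were untreated wild-type males of the substrain C57BL/6J/Ukj. They were killed by cervical dislocation in cohorts randomized by age, on consecutive mornings. The sample labels used here do not give the cohort of a mouse. The whole series holds colon, liver and brain of 52 mice aged 2 to 30 months. The colon samples were pieces of the whole wall of the mid colon, rinsed and cut open, and the liver samples came from the tip of the left lateral lobe, so both are mixtures of cell types. All 10 colons were sequenced in Run 3 with reads of 100 bases and all 10 livers in Run 1 with reads of 75 bases. Run, read length and tissue coincide here and cannot be told apart, and for that reason a gene was called only where the tissues differed at least 4-fold. Counts on genes ran from 25559384 to 42156156 for the colon libraries (median 32592018) and from 16182282 to 50697892 for the liver libraries (median 24086994).

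The colon takes up water and salt behind a layer of mucus that its goblet cells secrete, and it faces the densest bacterial community of the body. The liver makes most proteins of the blood plasma, bile acids, urea and the glucose released between meals, and it receives the blood that drains the gut. Both epithelia arise from embryonic endoderm, and they share several transcription factors, among them HNF4A.

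Levels are given as CPM, counts set to a common library total, after TMM scaling, an adjustment for libraries in which few genes take up much of the reads. Only where genes are counted at a CPM limit or a gene list is summed is CPM taken before this scaling. Differences are log2 values, colon minus liver, from edgeR's quasi-likelihood test on mouse pairs, and a gene was called where its p after Benjamini-Hochberg adjustment was 0.05 or less and its absolute log2 difference 2 or more. The SE of a difference was derived from the F value of that test and is no direct measure of the spread over mice. Levels of different genes are compared only within a tissue and per length, as TPM, the length-corrected form of CPM.

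The tissue labels held in all 20 libraries. Muc2, the gel-forming mucin of the gut, ran from 12181 to 15972 CPM in the colon (median 14129) and from 0.291 to 15.7 CPM in the liver (median 2.35), a log2 difference of 12.49 ± 0.52 (SE, n = 10 mice). Krt20, a keratin of mature gut epithelium, ran from 667 to 1068 CPM in the colon and from 0.0856 to 2.17 CPM in the liver, with a log2 difference of 10.01 ± 0.31 (SE). The groups did not overlap for either gene. Alb, which encodes serum albumin, ran from 79993 to 138118 CPM in the liver (median 102364) and from 0.215 to 0.883 CPM in the colon (median 0.385), a log2 difference of -17.91 ± 0.36 (SE). Apoa1, the main protein of high-density lipoprotein, ran from 9717 to 13604 CPM in the liver and from 0.0213 to 0.32 CPM in the colon, with a log2 difference of -16.31 ± 0.33 (SE). In every mouse the colon marker was higher in the colon and the liver marker higher in the liver. The few Muc2 counts of the liver were highest in N5 (15.7 CPM) and N2 (6.5 CPM), and the liver libraries of these mice also held the most counts of Car1, at 18.7 and 11.6 CPM against 5.45 to 8.27 CPM in the other 8. The source of these counts was not tested.

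Some libraries stood apart from the rest of their tissue. Among the 3388 genes called higher in the colon, the colon of N1 lay far from the other 9 colons, by a gap of over 0.466 of the whole range, above them for 119 genes and below them for 174 genes. The median exon length was 1673 bases for the former, 7294.5 bases for the latter and 3611 bases for all 3388. The colon of N2 stood above the others for 43 genes and below them for 67, whereas no other colon did so for more than 12 genes on either side. Among the 1935 genes called higher in the liver, the liver of N5 stood below the others for 89 genes and above them for 9. Without the mice N1, N2 and N5, 3410 genes were higher in the colon and 1966 in the liver. Of the 47 gene lists and families used below, 43 kept exactly their counts of calls without these mice, and the counts of the other 4 moved by at most 1.

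Of 16740 genes tested, 3388 (20.2%) were at least 4-fold higher in the colon and 1935 (11.6%) at least 4-fold higher in the liver, of which 2833 and 1572 code for proteins. With the adjusted p alone, 14397 genes (86.0%) would be called in either direction, and for 10069 genes (60.1%) the 10 colons and the 10 livers did not overlap. The calls in the colon were more numerous, and the largest differences lay on the liver side. The log2 difference reached 10 for 64 genes in favour of the colon and for 307 in favour of the liver. The median over all tested genes was 0.08. Scaled by library totals in place of TMM, this median moved by 1.03 to 1.11, and 5059 genes (30.2%) were higher in the colon and 1309 (7.82%) in the liver, which raised the share of the colon among the calls from 63.6% to 79.4%. All 3388 colon calls were kept under that scaling, as were 1309 of the 1935 liver calls.

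**Figure D1:**
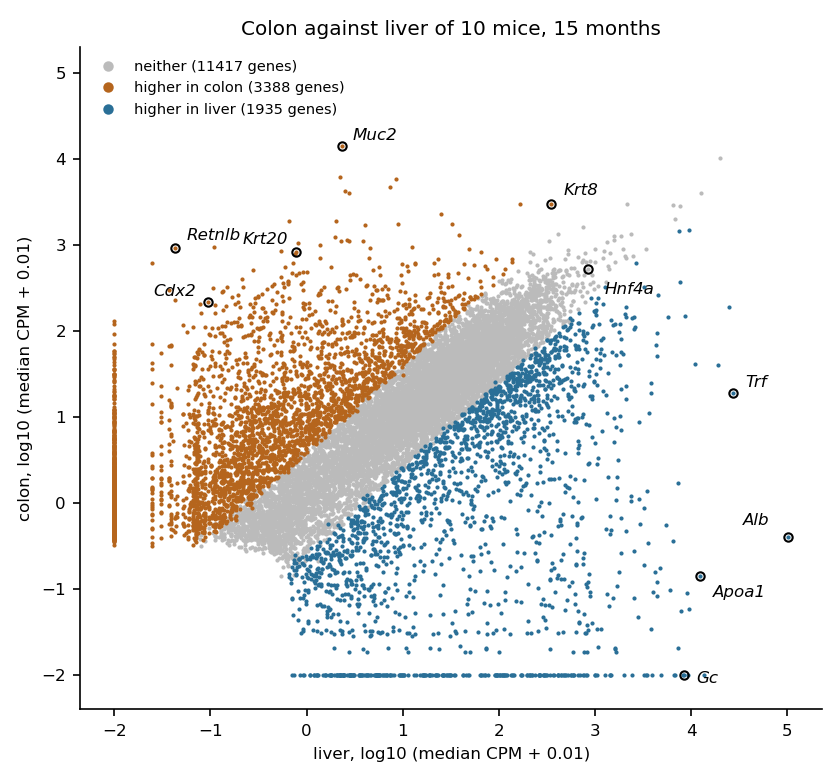
Median level of each of the 16740 tested genes in the 10 livers (horizontal axis) and the 10 colons (vertical axis), as log10 of CPM plus 0.01, with genes at least 4-fold higher in the colon in brown (3388), those higher in the liver in blue (1935) and all others in grey. Muc2 and Krt20 lie at the upper left, Alb, Apoa1 and Trf at the far right, Gc at the floor of the colon axis, and Hnf4a among the grey genes near the diagonal.

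The 2 tissues differed in how their RNA is spread over genes. The 10 most abundant genes held 8.84% ± 0.822 of the counts in the colon and 17.9% ± 1.01 in the liver (SD, n = 10), a mean difference of -9.09 percentage points (two-sided exact permutation test on pairs, p = 0.00195, the smallest that 10 pairs can give). It took 935 ± 64.2 genes to hold 50% of the counts in the colon and 191 ± 13.7 in the liver (same exact test, p = 0.00195). After thinning every library to 16182282 counts, 14730 ± 120 genes reached 1 CPM before TMM scaling in the colon and 12367 ± 197 in the liver. The difference was 2363 genes (same exact test, p = 0.00195). TMM scaling lowers CPM in these colons and raises it in these livers, so it would make this difference smaller. Before that scaling the liver thus had fewer genes at 1 CPM, and it had a larger share of its counts on a small set. The 20 genes of a plasma protein list alone held 16.0% ± 0.919 of the liver's counts and 0.00692% ± 0.00153 of the colon's (SD, n = 10). In contrast, 14 genes of mucus and goblet cells held 4.71% ± 0.959 of the colon's counts and 0.00169% ± 0.000956 of the liver's (SD, n = 10).

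A smaller set of genes was found in 1 tissue only. The limits of 1 and 0.1 CPM in this paragraph were applied before TMM scaling, so scaled liver levels given elsewhere can lie slightly above 0.1 CPM. There were 10795 genes at 1 CPM or more in all 20 libraries. Of 13795 genes at that level in all 10 colons, 325 stayed under 0.1 CPM in every liver, 243 of them protein-coding, and 53 had no count in any liver. Of 11570 genes at that level in all 10 livers, 234 stayed under 0.1 CPM in every colon, 162 of them protein-coding, and 96 had no count in any colon. Resistin-like beta (Retnlb), the ribonuclease Ang4, the transcription factor Atoh1 and the glucagon gene Gcg belonged to the former set. The latter held fibrinogen alpha (Fga), the vitamin D carrier Gc, plasminogen (Plg) and kininogen (Kng1). A gene with 0 counts in a tissue is given below by a bound, computed with 3 counts over the 10 libraries of that tissue, which is the limit that a count of 0 allows. A gene with 1 to 3 counts is given as a ratio with its exact 95% Poisson interval. These bounds and intervals cover counting error only.

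Of the 276 genes that a fixed rule names, 262 were called, with adjusted p values from 3.3e-18 to 7.22e-05 (edgeR's quasi-likelihood test with Benjamini-Hochberg adjustment), and for 258 of the 262 the colons and the livers did not overlap. The rule picks called genes and large differences, so these counts follow from it and are read against 20.2% and 11.6% of all genes called and 60.1% not overlapping. The gene lists and families below were chosen with earlier results of these data known. Their counts of calls are therefore partly built in, and they stand beside the same shares of all genes. In samples of whole tissue, fewer cells of a type and less RNA per cell cannot be told apart, and this holds for every cell type list below.

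Promoters were searched for the motifs of CDX2 and HNF4A, of whose genes only Cdx2 was called, and for those of muscle genes and the TATA box. RefSeq promoters on GRCm38.p6 were found for 11479 of 14658 tested protein-coding genes, and the 250 bases before the start were searched on both strands. TTTATNG, written after the CDX motif, was present in 9.99% of 1201 promoters of genes higher in the liver, 8.12% of 2144 of genes higher in the colon, 5.79% of 8134 called in neither direction and 10.2% of all 27025 promoters of the table. Its CTATAAA form overlaps the TATA motif TATAAA, which was searched on the gene's strand and found in 7.83%, 6.3%, 3.49% and 8.12% of these sets. CAAAGTCCA, written after the HNF4 motif, was present in 1.17%, 0.42%, 0.332% and 0.381%, and the CArG box of muscle genes in 0.999%, 1.68%, 1.01% and 1.4%. A match is a string of letters and was not tested as a binding site. Of the lists used below, TTTATNG was present in 1 of 6 promoters of mucus and goblet cells and 2 of 14 of absorptive colonocytes. It was also present in 2 of 9 of smooth muscle and 0 of 16 of plasma proteins. Among all 11479 promoters of tested protein-coding genes the share was 6.66%. The 150 bases before the start are shown for 2 abundant epithelial genes of the colon that carry it. In Krt20 the match overlaps TATAAA. They are Krt20 (chr11:99438154-99438303, minus strand) and Agr2 (chr12:35992775-35992924, plus strand), read 5′ to 3′ on the gene's strand, with the reverse complement of TTTATNG in capitals.
Krt20: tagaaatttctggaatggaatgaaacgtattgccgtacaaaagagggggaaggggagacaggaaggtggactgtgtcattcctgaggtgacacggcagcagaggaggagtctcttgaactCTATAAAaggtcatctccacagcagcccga
Agr2: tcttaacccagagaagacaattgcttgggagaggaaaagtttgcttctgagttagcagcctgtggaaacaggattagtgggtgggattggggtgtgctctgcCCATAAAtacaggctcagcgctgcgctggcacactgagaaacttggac

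The colon stood out first by its mucus. All 14 tested genes of mucus and goblet cells were higher in the colon, with a median log2 difference of 10.42, against 20.2% of all genes. Muc2 and Clca1, a protease that loosens the mucus, were the members with the most RNA per length, at medians of 8546 and 6790 TPM in the colon. Clca1 ran from 2369 to 11720 CPM in the colon and from 0.942 to 6.87 CPM in the liver, a log2 difference of 11.3 ± 0.31 (SE). Retnlb ran from 105 to 2275 CPM in the colon (median 914.5) and from 0 to 0.124 CPM in the liver, and Spink4, a protease inhibitor of goblet cells, from 318 to 1335 CPM and from 0.0687 to 0.42 CPM. The endoplasmic reticulum protein Agr2, which folds mucins, had a log2 difference of 11.02 ± 0.34 (SE). The lectin Zg16, which binds bacteria in the mucus, had one of 9.65 ± 0.31 (SE). Of 14 tested enzymes that add sugars to mucins, 11 were higher in the colon and none in the liver, with Gcnt3 (10.77), B4galnt2 (10.24) and Chst4 (9.85) in the lead on the log2 scale. Among the mucins themselves 7 of 9 tested were higher in the colon. The membrane mucins Muc4 and Muc3a had log2 differences of 10.45 and 10.0. The members that missed the call were Muc1 (1.68) and Muc16 (-0.78).

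Absorptive cells were nearly as distinct. Of 16 tested genes of absorptive colonocytes, 15 were higher in the colon, with a median log2 difference of 9.13. The carbonic anhydrase Car1 was the third most abundant gene of the colon per length, at a median of 15579 TPM, and ran from 1120 to 6926 CPM in the colon and from 5.45 to 18.7 CPM in the liver. Guca2a, which encodes guanylin, a hormone that governs salt secretion, ran from 650 to 1541 CPM in the colon and from 0.146 to 2.92 CPM in the liver. The sodium-proton exchanger Slc9a3 and the chloride exchanger Slc26a3, through which the colon takes up salt, had log2 differences of 10.28 ± 0.34 and 8.9 ± 0.28 (SE). Aqp8, a water channel of both tissues, was the exception in this list. It ran from 177 to 473.5 CPM in the colon and from 163 to 536 CPM in the liver, and its log2 difference was 0.07 ± 0.19 (SE). Of 17 tested genes of colonic ion and water transport, 12 were higher in the colon and none in the liver. The chloride channel regulator Clca4a led them at 10.79, ahead of the 2 exchangers, and Hsd11b2, which protects the aldosterone receptor from glucocorticoids, was next after these at 8.76.

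Genes that act against bacteria were split by tissue. Of 18 tested members, 11 were higher in the colon and 3 in the liver, with a median log2 difference of 6.84. Lypd8, which binds flagella and keeps bacteria away from the epithelium, was the nuclear gene with the most RNA per length in the colon (19019 TPM) and ran from 4858 to 6106 CPM there and from 0.699 to 22.3 CPM in the liver. Ang4 ran from 46.8 to 1577 CPM in the colon and from 0 to 0.13 CPM in the liver, a log2 difference of 13.7 ± 0.3 (SE). That value rests on 9 liver counts in all, and the paired log2 differences of the 10 mice had an SD of 1.84. Itln1, an intelectin that binds bacterial sugars, ran from 1.19 to 127 CPM in the colon and had no count in the liver, so it was at least 2229-fold higher in the colon. Duoxa2, the maturation factor of the peroxide-producing oxidase DUOX2, ran from 23.7 to 69.1 CPM in the colon against 3 counts in all livers, a ratio of 2768 (95% interval 947 to 13421). The 3 members higher in the liver were Hamp (-14.7), which encodes the iron hormone hepcidin, and the acute-phase genes Saa2 (-7.53) and Lcn2 (-4.38). Saa2 ran from 16 to 37.8 CPM in 7 livers and stood at 483, 1047 and 696 CPM in those of N3, N4 and N5. Lcn2 was high in the same 3 livers, at 74.8, 140 and 131 CPM against 5.71 to 15.0 CPM in the other 7.

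**Figure D2:**
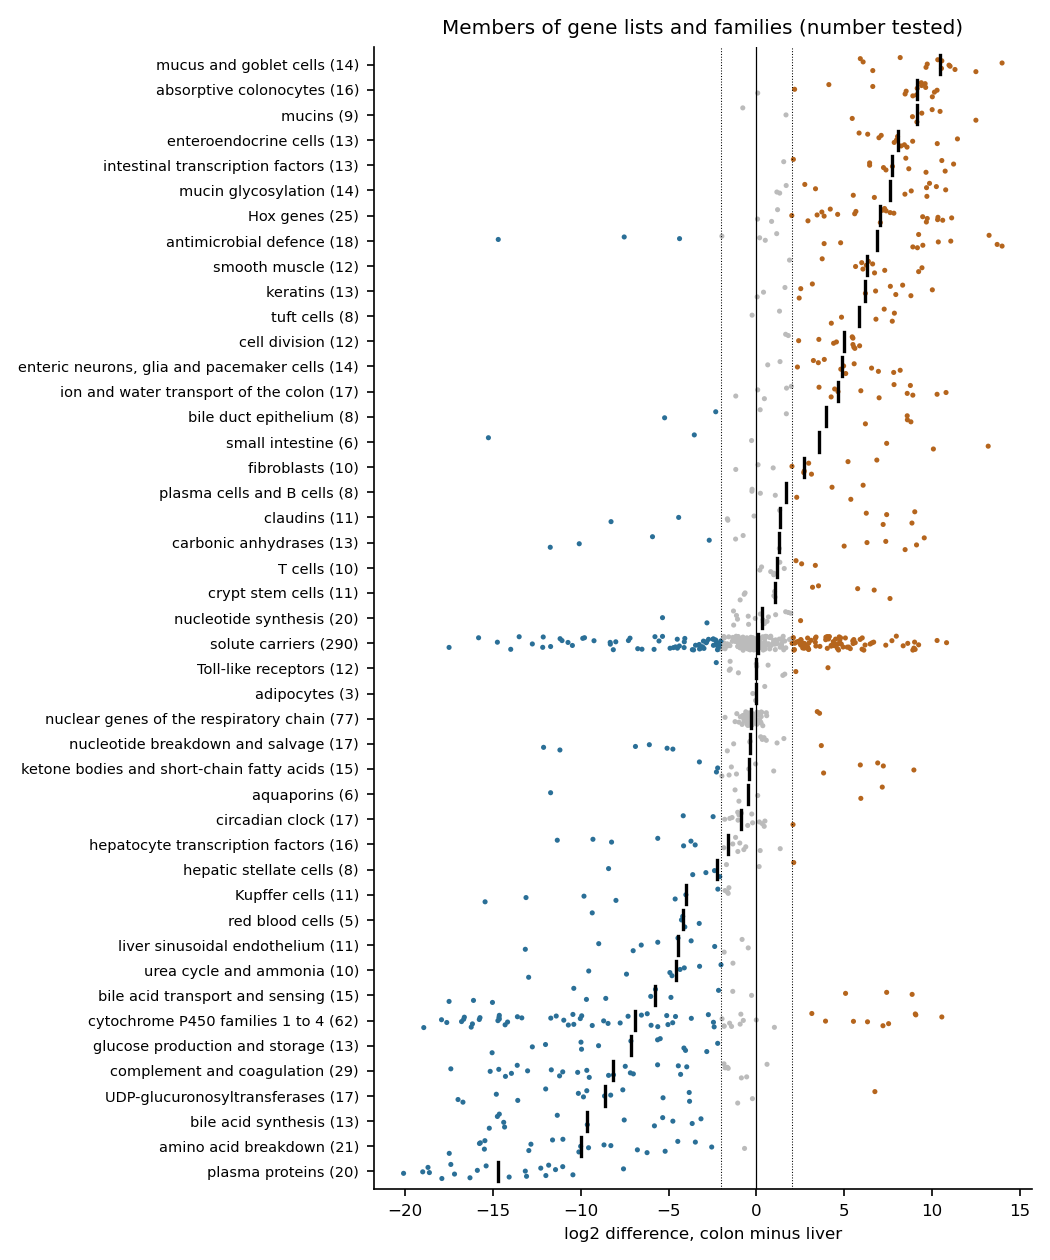
Log2 difference (colon minus liver) of every tested member of the gene lists and families with at least 3 tested members, each row being a list with the number tested in brackets and a black bar at its median. Brown points were called higher in the colon, blue points higher in the liver and grey points neither, dotted lines mark the 4-fold limits, and members without a count in 1 tissue are drawn at their fitted value, which is no bound. Lists of the colon epithelium and muscle lie to the right, nuclear genes of the respiratory chain at the centre and plasma proteins at the far left.

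Rare epithelial cells and dividing cells were visible in the colon. All 13 genes of hormone-producing enteroendocrine cells were higher there, with a median log2 difference of 8.03. Gcg, the source of glucagon-like peptides, ran from 39.5 to 56.8 CPM in the colon against at most 0.116 CPM in the liver, and secretin (Sct) was at least 680-fold higher. Tph1, the enzyme with which enterochromaffin cells make serotonin, ran from 16.1 to 39.3 CPM in the colon and from 0 to 0.407 CPM in the liver. Of 8 tested genes of the chemosensory tuft cells, 6 were higher in the colon, led by Sh2d6 (7.85) and Trpm5 (7.73). Of 12 genes of cell division 10 were higher in the colon, with a median of 5.0. Mki67, a marker of cycling cells, ran from 87.2 to 159 CPM in the colon and from 1.43 to 6.0 CPM in the liver. Its log2 difference was 5.6, between those of the cyclin Ccnb1 (5.87) and the topoisomerase Top2a (5.54). Genes of crypt stem cells were more mixed. Ascl2, Ephb2, Ephb3, Sox4 and Cdca7 were higher in the colon, whereas 6 of 11 tested, among them Lgr5 (-0.93) and Axin2 (0.99), were called in neither direction. Lgr5 and Axin2 are also used by hepatocytes near the central vein.

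The muscle and nerves of the colon wall were part of the sample. Of 12 smooth muscle genes, 11 were higher in the colon, with a median log2 difference of 6.31. Actg2, the actin of visceral muscle, ran from 403 to 1000 CPM in the colon and from 0.437 to 1.56 CPM in the liver. Cnn1, which encodes calponin, had the largest difference of the list at 9.42 ± 0.15 (SE). Of 14 genes of enteric neurons, glia and pacemaker cells, 12 were higher in the colon, among them the neuropeptide Vip (8.18) and the receptor Ret (6.94), on which the enteric nervous system depends. Of 10 fibroblast genes 7 were higher in the colon, with the fibulin Fbln1 at 5.21 and Col1a1 at 3.13, while decorin (Dcn) was at -1.18.

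Igha, the constant region of IgA, ran from 1168 to 3941 CPM in the colon and from 14.7 to 85.5 CPM in the liver, and Jchain, which joins IgA into dimers, from 426 to 1231 CPM and from 7.45 to 34.3 CPM. The B cell gene Ms4a1 (-0.25) did not pass, and 4 of 8 genes of the plasma and B cell list were higher in the colon. Of 10 T cell genes, 3 were higher in the colon, against 20.2% of all genes, namely the granzymes Gzma (3.35) and Gzmb (2.57) and Itgae (2.25), the integrin that holds lymphocytes in epithelium. The colons and the livers overlapped for both granzymes. Macrophage genes of the liver went the other way, as 7 of 11 Kupffer cell genes were higher in the liver. Clec4f, a lectin of Kupffer cells, ran from 136 to 201 CPM in the liver and had no count in the colon, and was thus at least 26640-fold higher in the liver. Cd5l, a protein secreted by macrophages, had a log2 difference of -13.12 ± 0.3 and the scavenger receptor Marco one of -9.82 ± 0.36 (SE). The complement genes C1qa, C1qb and C1qc, which macrophages of both tissues make, had differences of -1.61, -1.66 and -1.79 and were not called.

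Other cells of the liver were also distinct. Of 11 genes of liver sinusoidal endothelium, the porous lining of the liver's capillaries, 8 were higher in the liver, with a median of -4.47. Clec4g had 3 counts in all colons and 75.3 to 110 CPM in the liver, a ratio of 14644 (95% interval 5011 to 71009). Oit3 (-8.98) and Stab2 (-7.02), a receptor that clears hyaluronan from the blood, were next in size. Stellate cell genes were split, with 5 of 8 higher in the liver, led by Colec11 (-8.42), Reln (-3.63) and the growth factor Hgf (-2.88), which was no longer called with library totals, and 1, the pericyte gene Rgs5 (2.12), higher in the colon. In the bile duct list of 8 tested genes, Krt19 (8.79), Epcam (8.59), Cftr (8.58) and Krt7 (6.2), which many epithelia use, were higher in the colon. Spp1 (-5.23) and Pkhd1 (-2.32) were higher in the liver, the latter no longer with library totals. Red blood cell genes, 5 of 5 tested, were higher in the liver, led by Alas2 (-9.35), which starts heme synthesis, and the list held 0.0265% ± 0.00707 of the liver's counts against 0.00159% ± 0.000699 in the colon (SD, n = 10). Markers of neighbouring tissues were also examined. The fat cell genes Fabp4, Cidec and Plin4, 3 of 8 listed, passed the filter and differed by 0.47, -0.21 and -0.05. Before TMM scaling, the adipocyte list of 8 genes summed to between 35.0 and 240 CPM in the colon, with a median of 41.7 CPM. Among the colons, Fabp4, Cidec and Plin4 were all highest in N9, at scaled levels of 49.5, 16.6 and 24.8 CPM. Of 8 genes of pancreatic acinar cells only Cela1 was tested (0.5). It ran from 47.5 to 75.8 CPM in the colon and from 16.5 to 53.5 CPM in the liver, whereas no other gene of that list exceeded 0.106 CPM in any colon. Of 6 genes of skeletal muscle Acta1 (7.11) and Ckm were tested and higher in the colon, at medians of 3.24 and 11.3 CPM. Clps, which encodes the lipase cofactor known from the pancreas and was on no list, ran from 11.9 to 58.1 CPM in the colon against 1 count in all livers, a ratio of 4942 (95% interval 887 to 195180). Pnliprp2, a lipase of the pancreatic lipase family that was on no list either, had a median of 26.1 CPM in the colon, reached 169 CPM there and had no count in the liver.

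On the liver side, proteins secreted into the blood came first. All 20 plasma protein genes were higher in the liver, with a median log2 difference of -14.73, against 11.6% of all genes. Gc ran from 7978 to 9283 CPM in the liver and had no count in the colon, so it was at least 1320769-fold higher in the liver. Fga, a chain of fibrinogen, ran from 6956 to 18019 CPM in the liver against 3 counts in all colons, a ratio of 1720203 (95% interval 588622 to 8341430). Alb alone had a median of 77882 TPM in the liver, followed among nuclear genes by Apoa2 (22109), Apoe (20608), Apoa1 (17975) and the iron carrier Trf (14916). The mitochondrial gene mt-Nd2 was also among the 10 called genes with the most RNA per length in the liver, with a log2 difference of -2.65 ± 0.09 (SE) that no longer passed with library totals. Apoe is made by many cell types, and its log2 difference of -7.05 ± 0.16 (SE) was the smallest of the 5 nuclear genes named here. The largest log2 differences that rest on more than 3 colon counts were those of the inhibitor Serpina3k (-19.54), the alpha-macroglobulin Pzp (-19.14) and the fibrinogen chain Fgg (-19.0). The major urinary protein Mup3 ran from 3246 to 8233 CPM in the liver against 1 count in all colons, and Mup7 from 94.4 to 8304 CPM in the liver against none, at least 613516-fold higher. Members of the Mup, Mug and Serpina families have near-identical copies between which the counting can split or drop reads, so the value of a single copy is uncertain. In the complement and coagulation family 22 of 29 tested genes were higher in the liver, with a median of -8.14. C8b (-15.16) codes for a chain of the membrane attack complex, and the clotting factor F11 was at least 15950-fold higher. Beside the 3 C1q genes, the members that missed the call included C7 (0.6) and Cfb (-1.85).

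Bile acids showed both ends of the enterohepatic circuit. All 13 genes of bile acid synthesis were higher in the liver, with a median of -9.63. Cyp7a1, the rate-limiting enzyme, ran from 48.2 to 314 CPM in the liver and had no count in the colon, at least 22536-fold higher in the liver. The ligase Slc27a5 (-14.75) and Cyp2c70 (-14.64), which makes the muricholic acids of mice, followed. Of 15 tested genes of bile acid transport and sensing, 10 were higher in the liver and 3 in the colon. The liver members included the uptake transporters Slco1b2 (-16.11) and Slc10a1, of which the latter was at least 115142-fold higher, and Abcb11 (-15.03), which pumps them into bile. The colon members were Slc51a (8.86) and Slc51b (5.07), the 2 chains of the exporter on the blood side of gut cells, and the bile acid binding protein Fabp6, with 2 counts in all livers and a ratio of 228 (95% interval 63.2 to 1885). Slc10a2, the uptake transporter of the ileum, ran from 1.4 to 137 CPM in the colon and from 31.7 to 166 CPM in the liver, with a difference of -0.28 ± 0.35 (SE) that did not pass. The receptor FXR (Nr1h4) was at -1.35 and also uncalled, whereas its target Nr0b2 was at -10.4. Fgf15, the gut hormone of this circuit, stayed below the filter in both tissues, at no more than 0.138 CPM in any colon.

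Nitrogen and glucose metabolism lay on the liver side with few exceptions. Of 21 genes of amino acid breakdown, 20 were higher in the liver, with a median of -10.01, and Sdsl (-0.68) was not called. Uroc1 and Ftcd, which break down histidine, had 3 counts each in all colons, with ratios of 90883 (95% interval 31099 to 440702) and 88193 (95% interval 30178 to 427657). Of 10 urea cycle genes 9 were higher in the liver. Cps1, which commits ammonia to urea, ran from 4465 to 6623 CPM in the liver and from 0.255 to 2.0 CPM in the colon, a log2 difference of -12.97 ± 0.35 (SE). Arginase (Arg1) was at -9.55 and Ass1 at -7.4. All 13 genes of glucose production and storage were higher in the liver, with a median of -7.15. G6pc, the last step of glucose release, was at -15.05 and the transporter Slc2a2 at -12.76. The smallest differences in that list were those of Pklr (-2.21) and Slc37a4 (-2.83), which were no longer called when libraries were scaled by their totals.

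Nucleotides and short-chain fatty acids gave no common direction. The counts in this paragraph stand beside 20.2% of all genes higher in the colon and 11.6% higher in the liver. Of 20 genes of nucleotide synthesis, Impdh1 (2.51) was higher in the colon, Paics (-2.82) and Adssl1 (-5.35) in the liver and 17 in neither, with a median of 0.3. Paics was no longer called with library totals. Of 17 genes of nucleotide breakdown and salvage, 6 were higher in the liver, led by Dpys (-12.12), Uox (-11.19) and Upb1 (-6.89), and 1, the uridine phosphorylase Upp1 (3.69), in the colon. The median was -0.38 and became 0.65 with library totals. In the list of ketone bodies and short-chain fatty acids, 5 of 15 genes were higher in the colon and 3 in the liver. Slc5a8 (8.96), which takes up butyrate, the receptors Ffar2 (7.22) and Ffar3 (5.91), the mitochondrial acetate enzyme Acss1 (6.9) and Oxct1 (3.82), with which tissues use ketone bodies, were the colon members. Acss2 (-3.25), Acat1 (-2.28) and Acadm (-2.21) were the liver members, of which only Acss2 was still called with library totals. The median of -0.44 became 0.59 with library totals.

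Enzymes of drug metabolism were not confined to the liver. Of 62 tested genes of cytochrome P450 families 1 to 4, 43 were higher in the liver and 9 in the colon, with a median of -6.93. Cyp2c29 and Cyp1a2 had no count in the colon and were at least 295769-fold and 119233-fold higher in the liver. Cyp2c55 ran from 780 to 2505 CPM in the colon and from 6.46 to 28.7 CPM in the liver. Cyp2c65 (10.55), Cyp4f40 (9.07) and Cyp2d34 (9.04) also lay on the colon side, as did Cyp2s1 (6.32), Cyp4f16 (3.93), Cyp2d12 (3.15), Cyp4x1 and Cyp2w1, the last 2 with 3 counts and 1 count in all livers. The Cyp2c and Cyp2d genes are families of close copies, and single values are uncertain for the reason given above. Of 17 tested UDP-glucuronosyltransferases, which make compounds soluble for excretion, 14 were higher in the liver and 1, Ugt1a7c (6.74), in the colon. Ugt3a2, Ugt2a3 and Ugt3a1 had no count in the colon and were at least 78048-fold, 64536-fold and 17655-fold higher in the liver. The genes of the Ugt1a locus share their last exons, so that reads from those exons cannot be assigned to single members.

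Listed isozyme pairs often had 1 member on each side. Of 20 pairs, 13 split fully, with the liver member called higher in the liver and the colon member higher in the colon. The pairs were chosen with earlier results of these data known, so this count is partly built in and is no estimate for isozymes at large. Of all genes, 20.2% were higher in the colon and 11.6% in the liver. In 16 pairs the listed member was also the one with more RNA per length in its own tissue. Pyruvate kinase was split between Pklr (-2.21) and Pkm (3.82), the glucose transporters between Slc2a2 (-12.76) and Slc2a1 (2.7), arginase between Arg1 (-9.55) and Arg2 (2.93), and phosphoenolpyruvate carboxykinase between Pck1 (-4.04) and Pck2 (2.97). Pck1 still had more RNA per length than Pck2 in the colon, at 174 against 18.3 TPM. Fructose bisphosphatase was split between Fbp1 (-9.96) and Fbp2 (7.85) and glycogen synthase between Gys2 (-9.99) and Gys1 (2.78). The steroid enzymes Hsd11b1 (-7.02) and Hsd11b2 (8.76), which activate and inactivate glucocorticoids, were split as well. Fabp1 had a median of 14877 TPM in the liver and 1.33 TPM in the colon, while Fabp2 had 1930 TPM in the colon and 161 TPM in the liver. Mat1a, which makes S-adenosylmethionine in hepatocytes, was at -16.68, while its partner Mat2a (1.86) missed the call. In pairs such as Acacb and Acaca (-3.02 and -1.77) and Aqp9 and Aqp8 (-11.72 and 0.07), only the liver member was called, and Acacb no longer with library totals.

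Of 13 factors of intestinal epithelium and mesenchyme, 12 were higher in the colon, with a median of 7.74. Cdx2, which directs intestinal identity, ran from 166 to 311 CPM in the colon and from 0 to 0.371 CPM in the liver, and Isx (11.22) and Atoh1 (10.55), the factor of secretory cells, had differences of like size. Of 16 factors of hepatocytes, 7 were higher in the liver, with a median of -1.6. Onecut1 had 3 counts in all colons, a ratio of 3411 in favour of the liver (95% interval 1167 to 16541), and Onecut2 (-9.31) and the xenobiotic receptor Nr1i3 (-8.25) followed. Hnf4a ran from 412 to 647 CPM in the colon and from 585 to 1525 CPM in the liver, a difference of -0.72 ± 0.11 (SE), short of the 4-fold limit and overlapping between the groups. Foxa3 (-0.61) and Foxa1 (1.35) lay within the limit as well. Hnf4g, the paralogue of Hnf4a, was on the colon side at 6.44 ± 0.21 (SE).

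Hox genes, which record position along the body axis, set the colon apart. Of 39 listed, 25 passed the filter and 22 of these were higher in the colon, with a median log2 difference of 7.05 and none higher in the liver. Hoxb9 ran from 41.9 to 66.7 CPM in the colon and from 0 to 0.124 CPM in the liver. Hoxa11 ran from 6.38 to 10.5 CPM in the colon and had no count in the liver, at least 516-fold higher in the colon. The genes of groups 9 to 13 of the Hoxa cluster and the tested Hoxd genes were close to or at 0 in the liver, whereas anterior genes such as Hoxb2 (1.2) and Hoxa4 (0.86) were not called. No gene of the Hoxc cluster passed the filter, and none exceeded 0.592 CPM in any colon.

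The colon of N2 had another Hox profile than the other 9 colons. It was the lowest of the 10 for 12 of the 25 genes, all in the clusters Hoxb and Hoxd, and the highest for 6, among them Hoxa9 and Hoxa13. Hoxb13, the gene of the most posterior group of its cluster, stood at 63.4 CPM in N2 and at 3.68 to 28.4 CPM in the others. Hoxb6 stood at 3.11 CPM against 24.8 to 50.9 CPM, Hoxb7 at 1.4 CPM and Hoxb8 at 1.59 CPM. Other genes set this colon apart as well. Slc10a2 was at 1.4 CPM against 33.9 to 137 CPM, Slc51a at 1.73 CPM against 22.9 to 54.2 CPM, Car1 at 1120 CPM against 3785 to 6926 CPM and Isx at 28.4 CPM against 74.8 to 119 CPM. What set this colon apart was not tested.

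**Figure D3:**
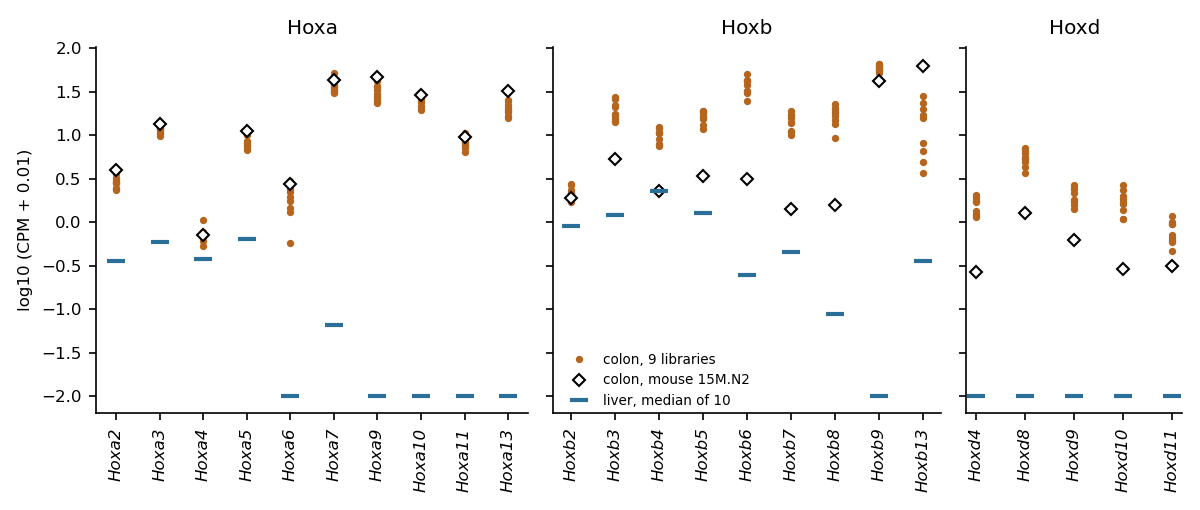
Levels of tested Hox genes as log10 of CPM plus 0.01, with 9 colons as brown points, the colon of mouse N2 as an open diamond and the median of the 10 livers as a blue bar, in 3 panels for the clusters Hoxa, Hoxb and Hoxd. The diamond lies below all points for Hoxb3 to Hoxb9 and for Hoxd4 to Hoxd11 and above all points for Hoxb13 (63.4 CPM), and the liver bars of the posterior Hoxa genes and all tested Hoxd genes lie at the floor of the axis.

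Within the colon group some defence genes varied far more than the mucin. Muc2 differed by no more than 12181 to 15972 CPM among the 10 colons. Retnlb ran from 1315 to 2275 CPM in N1, N2, N4, N5 and N10 and from 105 to 514 CPM in the other 5. Ang4 was at 820 to 1577 CPM and at 46.8 to 414 CPM in the same sets of mice, Clca1 at 8048 to 11720 CPM and at 2369 to 4358 CPM, and Itln1 at 49.5 to 127 CPM and at 1.19 to 22.2 CPM. These genes were thus high in the same 5 colons, a grouping seen in the values and not given by any label. The antibacterial lectins Reg3b and Reg3g did not follow it. Reg3b was highest in N7 and N8, at 423 and 375 CPM, and lowest in N2, at 1.16 CPM, while Reg3g was highest in N7, at 188 CPM, and lowest in N2, at 2.73 CPM.

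**Figure D4:**
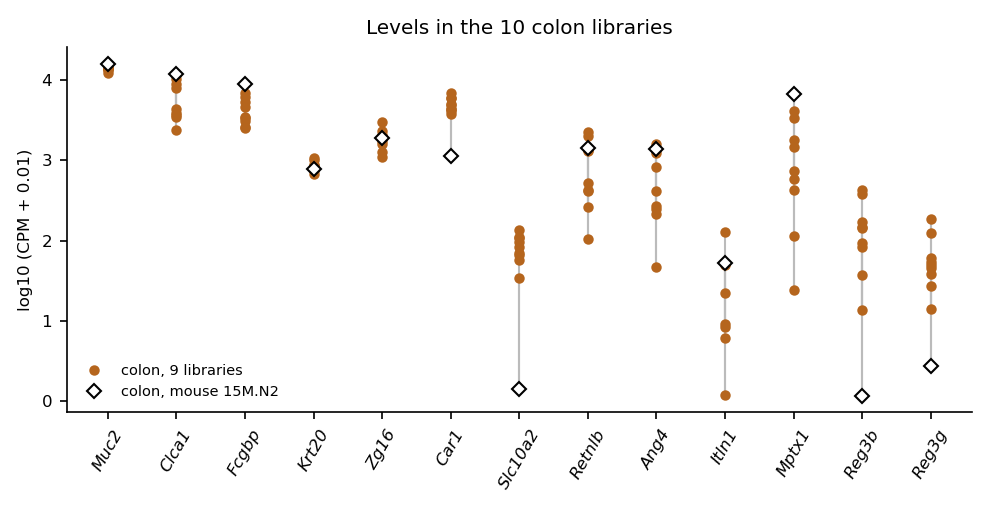
Levels of 13 epithelial genes in the 10 colon libraries as log10 of CPM plus 0.01, with 9 colons as brown points, mouse N2 as an open diamond and a grey line over the range. Muc2 and Krt20 spread little, Retnlb, Ang4, Itln1 and Mptx1 spread widely, and N2 lies lowest for Car1, Slc10a2, Reg3b and Reg3g.

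Keratins, claudins, carbonic anhydrases and aquaporins were also compared between the colon and the liver. The counts in this paragraph stand beside 20.2% of all genes higher in the colon and 11.6% higher in the liver. Of 13 tested keratins 10 were higher in the colon and none in the liver, with a median of 6.2, or 5.58 with the 2 genes without a liver count at their bounds. Krt8, the partner of Krt18 in both epithelia, was at 3.18 and Krt18 at 0.4. Among 11 claudins, which seal the gaps between cells, Cldn23 (9.01), Cldn7 (8.85), Cldn4 (7.41), Cldn15 (7.21) and Cldn8 (6.25) were higher in the colon and Cldn1 (-8.28) and Cldn14 (-4.43) in the liver. Of 13 carbonic anhydrases 6 were higher in the colon, led by Car12 (9.55), and 4 in the liver, namely Car5a (-11.74), Car3 (-10.09), Car14 (-5.92) and Car5b (-2.69), the last no longer called with library totals. Aqp4 (5.94) and Aqp12, at least 34.7-fold higher, were the colon members among 6 tested aquaporins, and Aqp9 (-11.72) was the liver member.

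The same contrast was drawn in the other age groups, in different mice, to see which calls returned. The colons of all ages were sequenced in Run 3, whereas the livers of 2 and 24 months came from Run 2 and those of 9 and 30 months mostly from Run 1. Genes higher in the colon made up 21.8% of those tested at 2 months, 20.6% at 9, 18.0% at 24 and 18.7% at 30 months, and genes higher in the liver 11.4%, 11.4%, 10.6% and 11.1%. Of the 15-month colon calls that were tested at these ages, 95.7%, 97.2%, 83.6% and 89.5% were called the same way, as were 91.1%, 96.9%, 84.8% and 91.1% of the liver calls. In all 5 age groups 2548 colon calls (75.2%) and 1411 liver calls (72.9%) returned. Muc2 stood at 13.17, 12.99, 13.86 and 13.13 at 2, 9, 24 and 30 months, and Alb at -18.03, -17.84, -18.18 and -18.05. Between livers of Run 1 and Run 2 at 9 and 30 months, with age as a term, 42 of 15015 genes (0.28%) differed 4-fold. Among them were 14 of the 1603 tested colon calls and 8 of the 1935 liver calls. Run 2 held only 2 livers at each of these ages, against 8 of Run 1 at 9 months and 10 at 30 months. With so few libraries, run differences can be missed. A Run 3 liver or a Run 1 colon was not analysed here.

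The brain of the same 10 mice, sequenced in Run 1 like the livers, gave a contrast without a change of run. Of 17408 genes tested, 2769 (15.9%) were 4-fold higher in the liver than in the brain and 4990 (28.7%) higher in the brain. These values share the liver libraries with the colon contrast and are set beside it gene by gene. Alb was 12.96 higher in the liver than in the brain and 17.91 higher than in the colon on the log2 scale, and Apoa1 was 12.69 and 16.31 higher. Cyp7a1 was 13.27 higher than in the brain, and Cps1 was 12.17 and 12.97 higher. Many abundant liver genes lay near the value of Alb against the brain, whatever their difference from the colon. Serpina3k, Pzp and Fgg, at -19.54, -19.14 and -19.0 (colon minus liver), were 13.23, 12.95 and 13.07 higher in the liver than in the brain. The source of the brain counts of these liver genes was not tested. Other genes called higher in the liver than in the colon did not stand above the brain. Reln was 0.14 higher in the liver than in the brain and was not called there, and Hlf and Tef differed from the brain by -1.43 and -1.66 on the log2 scale, liver minus brain. The genes named in this paragraph are examples.

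Few genes of the circadian clock passed the 4-fold call. Of 17 clock genes, Npas2 (2.08) was higher in the colon, against 20.2% of all genes. Hlf (-4.17) and Tef (-2.47) were higher in the liver, near the 11.6% of all genes, and 14 were called in neither direction. The median of -0.86 became 0.18 with library totals. The colons and the livers overlapped for Npas2 and Tef, and Tef was no longer called with library totals. The liver level of Dbp, an output gene of the clock, left a wide gap between 4 mice, N5, N6, N9 and N10, at 66.7 to 193 CPM, and the other 6, at 1.24 to 9.95 CPM. In the colon Dbp was at 9.92 to 23.6 CPM in those 4 mice and at 1.21 to 5.29 CPM in the other 6. The core activator Arntl ran the opposite way, at 3.82 to 15.8 CPM in the 4 livers and 48.2 to 60.2 CPM in the 6, and at 24.3 to 32.9 CPM in the 4 colons and 38.1 to 48.1 CPM in the 6. The 4 mice held the 4 highest or the 4 lowest values at the same end in both tissues for 8 of the 17 genes. Among these were Cry1, Nr1d1, Nr1d2, Tef and Ciart, and also Dbp and Arntl. The 4 mice were chosen by their liver Dbp, so this count is partly built in. The share of all genes with this pattern was not determined. Because the mice fell into separate sets, no correlation over all 10 is given. Over the 6 mice of the larger set, Tef had a Pearson r of 0.96 between the tissues (exact permutation p = 0.0194, adjusted p = 0.181 over 17 genes), with a Spearman rho of 0.83 (exact permutation p = 0.0583), and r was 0.95 without the 2 mice farthest from the median. None of the 17 genes passed the adjusted threshold (exact permutation test, two-sided), and 3 had an unadjusted Pearson p of at most 0.05. What separates the 2 sets of mice was not tested.

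**Figure D5:**
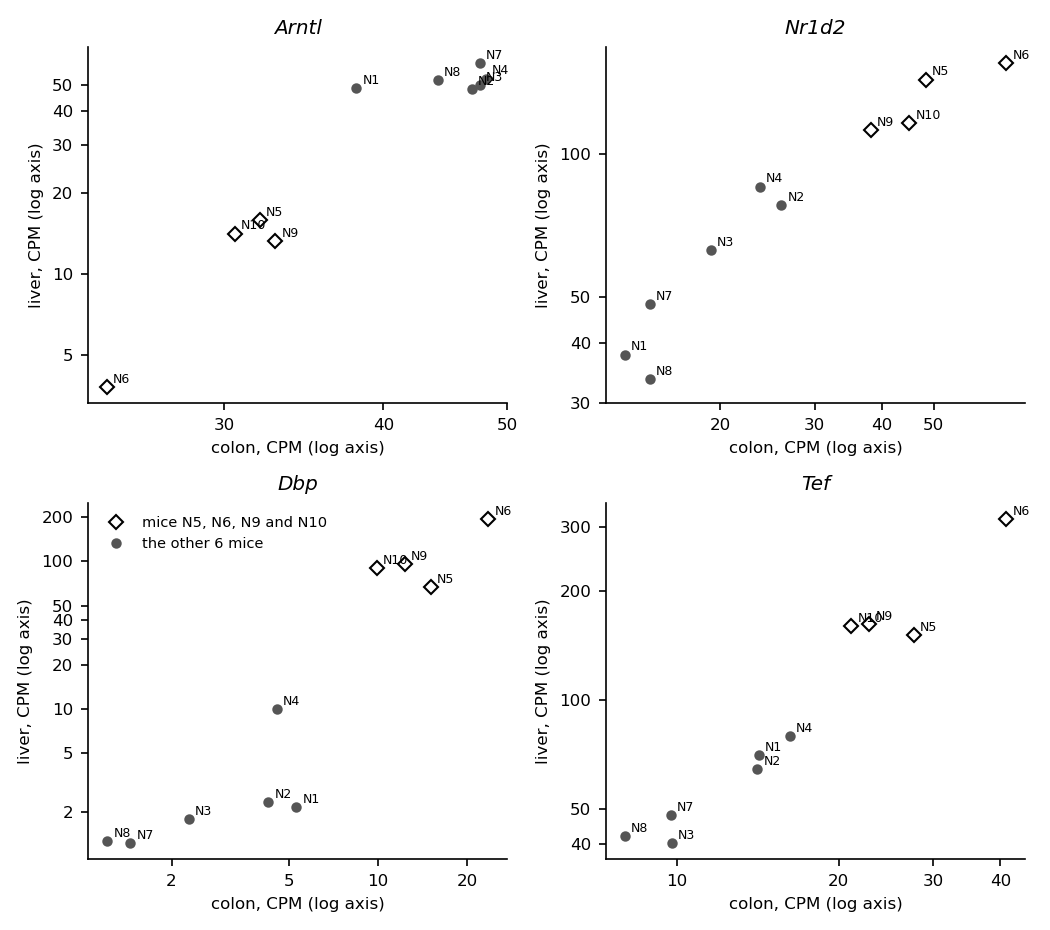
Levels of Arntl, Nr1d2, Dbp and Tef in the colon (horizontal axes, CPM, log scale) and the liver (vertical axes, CPM, log scale), each point being 1 mouse named by its number. Open diamonds are N5, N6, N9 and N10, which lie at the lower left for Arntl (3.82 to 15.8 CPM in the liver) and at the upper right for the other 3 genes, and filled circles are the other 6 mice.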

How the data were processed

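RNA from the colon, liver and brain of 52 mice was sequenced from stranded polyadenylated libraries. The authors deposited raw counts, whole numbers of reads per gene and library without normalization. The submitters' processing notes name cutadapt 1.12, HISAT2 2.1.0, SAMtools 1.9 and HTSeq 0.6.1 with GRCm38.p6 (mm10), without their roles. Reads that match several genes can be dropped or split by such counting. Of 55471 gene identifiers, 55230 were found in GENCODE M21, which gave symbols, types and exon lengths. The number of unused columns with values per sample was 0.

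Every library was assigned to tissue, age, run and mouse from its labels, and colon and liver were paired by the mouse code. For the count test, edgeR 4.0.16 under R 4.3.3 fitted mouse and tissue as terms (quasi-likelihood F-test, TMM factors of 1.359 to 1.491 in the colon and 0.666 to 0.747 in the liver) after filterByExpr, whose settings were 10 for the count, 15 for the total and 0.7 for the proportion. Over genes tested, the deviations of a colon correlated with those of its own liver at -0.029 to 0.189, above 0.1 for 5 of 10 mice, and the pairing rests on the labels. Single values were compared by exact permutation over 1024 sign changes. TPM used exon lengths. Promoters were taken as the first RefSeq entry of a gene. Simulated data were used to check the fit. Python 3.11.15, numpy 2.4.6, pandas 2.3.3, scipy 1.17.1 and matplotlib 3.10.9 were used, and DESeq2 1.42.0 served as an alternative.

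The members, 35 gene lists, 12 families and 20 isozyme pairs were chosen with earlier results of these data known. Named genes are 4 markers, per direction the 10 called protein-coding genes with the largest difference among those with a median of at least 100 TPM in the higher tissue and the 10 with the highest TPM, per list and family the 3 members with the largest difference and any member in the other direction, both members of each pair, and the clock genes of highest and lowest correlation. Members of lists outside this rule, and the genes that set single libraries apart, were named after their values were seen. Some genes are not reported here.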

Additional observations from a re-analysis of the deposited data

Results flagged for a closer look

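Levels of a part of the named genes, as log values, and library totals were examined for a single library far from the other 9 of its tissue. The limit was a gap of over 0.466 of the whole range, and 83 groups of 10 were examined. Named genes outside these groups can hold such libraries too. The gap was exceeded in 17 groups, and chance alone gives about 1 in 20 groups.

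In the colon of N2, Isx was lowest at 28.4 CPM (group median 90.8), Car1 at 1120 CPM (median 4637) and Slc10a2 at 1.4 CPM (median 76.7). In the colon of N1, Guca2a was highest at 1541 CPM (median 840), Aldoa at 848 CPM (median 683) and Fabp2 at 710 CPM (median 418), while Hnf4g was lowest at 7.18 CPM (median 16.3), as was Acaca at 33.9 CPM (median 50.2).

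The liver of N5 was lowest for Apoa1 at 9717 CPM (median 12465), Mup7 at 94.4 CPM (median 3923), Mup3 at 3246 CPM (median 6774), Cyp2c29 at 1439 CPM (median 2023), Apoe at 17698 CPM (median 25028), Car3 at 1146 CPM (median 3509) and Hsd11b1 at 461 CPM (median 664). The liver of N6 had the highest total, 50697892 counts (median 24086994), and the highest level of Gys2, at 290 CPM (median 149). What sets these libraries apart was not tested.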

How the results depend on the processing

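The pairing had little effect on the counts: without the replicate block that pairs the tissues by mouse, 3376 genes were higher in the colon and 1949 in the liver, against 3388 and 1935 with it, and 2788 against 2769 were higher in the liver than in the brain. Without the filter on low counts, which adds rarely counted genes to the test, 5531 genes were higher in the colon and 2990 in the liver. Leaving out 1 mouse at a time gave 3340 to 3456 and 1916 to 1955 genes. DESeq2 size factors gave 3425 and 1902, upper-quartile factors 3644 and 1755, the DESeq2 Wald test 3444 and 1905, a test against the 4-fold limit itself 3032 and 1756, and counts thinned to the smallest library 3013 and 1799. Of 274 named genes tested, none reversed in any of these settings, 257 kept their call in all but the scaling by library totals, and 30 lost it under that scaling. The medians of 6 lists and families changed sign there, namely nucleotide breakdown, ketone bodies and short-chain fatty acids, the clock, aquaporins (-0.46 to 0.57), the respiratory chain (-0.29 to 0.74) and adipocytes (-0.05 to 0.98). The number of clock genes correlated between the tissues at the adjusted threshold was 0 within the 6 mice of the larger set (Pearson, exact permutation test), a setting added after seeing the data, as was leaving out N1, N2 and N5 together. With 3 at an unadjusted p of at most 0.05 and only 6 mice, this count says nothing of stability. Depth limits the statements on genes with 0 counts to the bounds given.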

Other observations

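Solute carriers, the largest family of membrane transporters, were called in both directions. Of 290 tested, 84 were higher in the colon, against 20.2% of all genes, and 65 in the liver, against 11.6% of all genes, with a median log2 difference of 0.06. Beside the exchangers named above, the colon members included Slc9a2 (9.23), a further sodium-proton exchanger, the choline transporter-like Slc44a4 (9.03) and the amino acid transporter Slc6a14 (9.0). The liver members included the transporter Slc22a30, at least 34242-fold higher, the glutamine transporter Slc38a3 (-13.99) and the fatty acid transporter Slc27a2 (-8.32). The amino acid transporter Slc38a4 (-11.72), the betaine and GABA transporters Slc6a12 (-8.33) and Slc6a13 (-10.73), the vitamin C transporter Slc23a1 (-10.48) and the arginine transporter Slc7a2 (-8.01) followed. The zinc and manganese transporters Slc39a14 (-3.08) and Slc30a10 (-2.33) were also on the liver side, the latter no longer called with library totals.

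Of 77 tested nuclear genes of the respiratory chain, 75 were within the 4-fold limit, with a median of -0.29 that became 0.74 with library totals. The exceptions, both higher in the colon, were Cox7a1 (3.46) and Cox6b2 (3.59), which code for tissue-specific subunits of cytochrome c oxidase, and Ndufa4 (-1.79) was the largest difference on the liver side, short of the limit though the colons (73.1 to 150 CPM) and the livers (264 to 371 CPM) did not overlap. Genes of the mitochondrial genome held 3.39% ± 0.231 of the counts in the colon and 4.6% ± 0.175 in the liver (SD, n = 10).

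Among 12 Toll-like receptors, Tlr1 (4.07) and Tlr4 (2.24) were higher in the colon, against 20.2% of all genes, and Tlr12 (-2.29) in the liver, against 11.6%. Tlr12 was no longer called with library totals. Tlr1 ran from 37.8 to 53.0 CPM in the colon and from 1.86 to 4.35 CPM in the liver. Of 6 tested genes used as markers of the small intestine, Alpi, Sis and Fabp6 were higher in the colon, at medians of 35.2, 3.86 and 2.35 CPM, and Treh (-3.54) in the liver. Apoa4, with 3 counts in all colons, was higher in the liver by a ratio of 63950 (95% interval 21882 to 310099).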
